A study of Mus musculus with 11 samples.

Results

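Deletion of Nemo in liver parenchymal cells was examined in hepatocytes that also lacked Cxcr6. The comparison set 3 arrays of the double knockout (double KO) against 3 arrays of the Cxcr6 knockout (Cxcr6 KO), chosen by their titles out of the 11 arrays of the series. Double KO hepatocytes carried both a liver-specific Nemo deletion (NemoLPC-KO) and the Cxcr6 deletion, and Cxcr6 KO hepatocytes carried the Cxcr6 deletion alone, so loss of Cxcr6 was common to both groups. Their source names place them in the same mouse line, Nemo_CXCR6, with Cre (double KO) and without it (Cxcr6 KO). A further 3 arrays of Nemo KO and 2 of wildtype came from the Nemo line, also with and without Cre, and served for the same contrast where Cxcr6 was intact. All hepatocytes came from untreated males aged 12 weeks. The labels do not name the promoter that drives Cre, and they call the replicates biological without saying that each was a separate mouse, so p-values measure the spread between these samples.

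Ikbkg encodes Nemo, the scaffold that the IkB kinases need for their activation. These kinases release NF-kB, which induces survival and inflammatory genes, and mice without Nemo in hepatocytes develop hepatocyte death, inflammation, fibrosis and liver tumours. Cxcr6 is a chemokine receptor of T and NKT cells that binds Cxcl16, a ligand made by liver endothelial cells and macrophages among others.

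Values are log2 signals, 1 per gene and array, and arrays carry no read depth, so the number of arrays limits the precision. Within groups, arrays correlated at 0.9899 to 0.9919 in double KO and at 0.9928 to 0.9947 in Cxcr6 KO across all deposited rows. The targeted genes did not check the labels, because whether their probes lie in the deleted parts is not known. Ikbkg had signals of 8.76, 8.90 and 9.49 in double KO and 9.18, 9.12 and 9.16 in Cxcr6 KO, and Cxcr6 had 5.29, 4.94 and 5.31 in double KO and 5.29, 5.56 and 5.09 in Cxcr6 KO. The groups overlapped for both.

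Genes were tested where the mean of at least 1 group reached 5.27, the median of row means over all deposited rows. In limma's fit of all 4 groups, 1358 of 18337 genes tested (7.41%) differed between double KO and Cxcr6 KO at a Benjamini-Hochberg adjusted p under 0.05. A total of 631 (3.44%) were higher in double KO and 727 (3.96%) were lower. The large differences were mostly rises: 295 genes rose and 165 fell at least 2-fold, and 84 rose and 13 fell at least 4-fold. Many more genes had arrays that did not overlap between the groups, 2438 of those tested (13.3%) with all double KO arrays higher and 4477 (24.4%) with all lower. The median log2 fold change over all genes tested was -0.06. Centring each array on its median moved it up by 0.059 and turned the split into 657 higher and 462 lower, so that 58.7% of calls were higher, against 46.5% as deposited. Which genes passed depended on single arrays: 1261, 535 and 205 genes passed without double KO replicate 1, 2 or 3, and 529, 201 and 116 without Cxcr6 KO replicate 1, 2 or 3. The 1358 genes kept their sign in all 22 alternatives wherever they were tested. None of the 1358 had arrays that overlapped between the groups, so leaving out an array or changing the filter could not change a sign.

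Several genes separated the groups with little spread. Casp12, a caspase of the endoplasmic reticulum, had signals of 7.32, 7.01 and 6.81 in double KO, against 5.55, 5.52 and 5.54 in Cxcr6 KO. Golm1, a Golgi membrane protein raised in liver disease and liver cancer, had 8.34, 8.40 and 8.35 in double KO and 6.60, 6.60 and 6.59 in Cxcr6 KO. Every double KO array stood more than 1 log2 unit above every Cxcr6 KO array for both genes, which rose by 1.51 ± 0.14 and 1.77 ± 0.19 (log2 fold change ± standard error, adjusted p = 0.00377 and 0.00593). Sema6a, a transmembrane semaphorin, rose by 1.36 ± 0.13 (adjusted p = 0.00377), the metalloprotease-like adhesion gene Adam23 by 2.13 ± 0.20 (adjusted p = 0.0041) and the methionine sulfoxide reductase Msrb3 by 1.30 ± 0.14 (adjusted p = 0.00593).

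**Figure D1:**
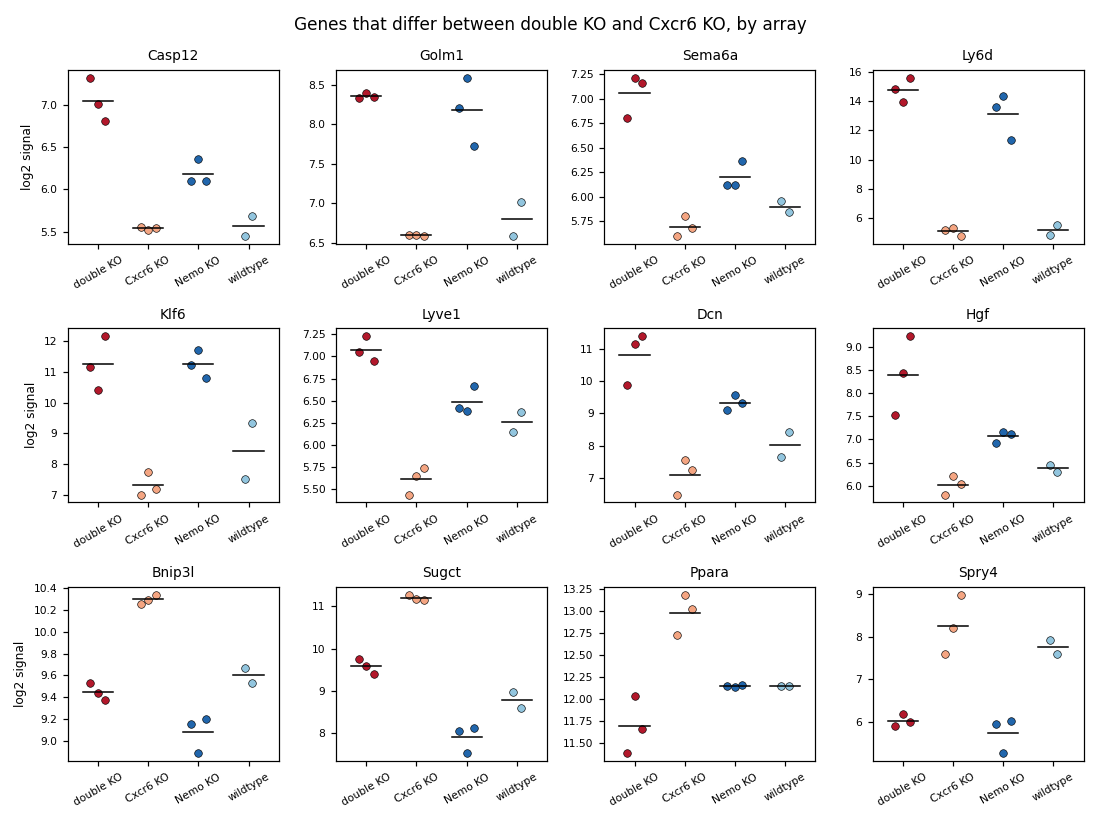
Log2 signal (vertical axis) of 12 genes in each of the 11 arrays, by group along the horizontal axis, with a bar at each group mean. For all 12 genes the 3 double KO arrays lie wholly above or wholly below the 3 Cxcr6 KO arrays, and Casp12 runs from 6.81 to 7.32 in double KO and from 5.52 to 5.55 in Cxcr6 KO.

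Among genes that were lower, the mitophagy receptor Bnip3l had signals of 9.53, 9.44 and 9.38 in double KO, against 10.26, 10.29 and 10.34 in Cxcr6 KO. Sugct, a mitochondrial CoA-transferase of lysine breakdown, had 9.76, 9.60 and 9.41 in double KO and 11.28, 11.16 and 11.14 in Cxcr6 KO. Neither gene's arrays overlapped, and they fell by 0.85 ± 0.10 and 1.60 ± 0.17 (adjusted p = 0.00673 and 0.00593). The peptidase gene Trhde fell by 1.54 ± 0.17 and the orphan nuclear receptor Esrrg by 0.95 ± 0.11 (adjusted p = 0.00593 and 0.007), and the mitochondrial iron-sulphur cluster factor Lyrm4 fell by 0.86 ± 0.10 (adjusted p = 0.00823). Sugct was far lower in the Nemo line, at 7.54 to 8.13 in Nemo KO and 8.61 and 8.97 in wildtype.

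The widest gap was at Ly6d, a membrane-anchored surface protein, with signals of 14.80, 13.90 and 15.60 in double KO and 5.19, 5.37 and 4.80 in Cxcr6 KO. The adhesion gene Gldn followed with 10.79, 10.52 and 11.04 in double KO and 5.56, 4.92 and 4.95 in Cxcr6 KO. Neither gene was far from the median signal of an array in Cxcr6 KO, so their folds are ratios of signals and not of RNA amounts. Klf6, a zinc finger factor induced by injury, had 11.16, 10.42 and 12.16 in double KO and 7.01, 7.73 and 7.19 in Cxcr6 KO, and rose by 3.94 ± 0.53 (adjusted p = 0.00964). The apolipoprotein Apoa4 had 16.97, 16.81 and 17.46 in double KO and 12.91, 13.63 and 14.22 in Cxcr6 KO, and rose by 3.49 ± 0.44 (adjusted p = 0.00856). The basement membrane antigen Tinag rose by 3.02 ± 0.33, and the melatonin receptor Mtnr1a by 2.71 ± 0.37 (adjusted p = 0.00593 and 0.0101). The tubulin Tubb2a rose by 3.45 ± 0.69 and Itih5, which binds hyaluronan, by 3.14 ± 0.58 (adjusted p = 0.0246 and 0.0209).

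The genes that NF-kB signalling uses and induces gave 0 calls, in lists too short for this to stand apart from the 7.41% called over all genes tested. Of 18 genes of the IkB kinase complex and NF-kB factors, limma called none, 1 had an unadjusted p under 0.05, and the median was 0.02. Ikbkb, the catalytic subunit, averaged 8.50 ± 0.08 in double KO and 8.37 ± 0.12 in Cxcr6 KO (SD, n = 3 each), and Rela, the main activating factor, averaged 11.90 ± 0.45 and 11.74 ± 0.42. Of 19 feedback and survival targets, limma called 0, 7 had an unadjusted p under 0.05, and the median was 0.09. The NF-kB inhibitor gene Nfkbia, itself a target, had 9.65, 9.62 and 8.49 in double KO and 10.46, 9.86 and 10.57 in Cxcr6 KO. These arrays did not overlap, but the difference of -1.04 ± 0.44 did not pass (adjusted p = 0.155). Of the feedback targets, 1 was called higher without double KO replicate 1 and 2 lower after quantile normalization. Tnfaip3 differed by 0.09 ± 0.13 and the caspase 8 inhibitor Cflar by -0.23 ± 0.21 (adjusted p = 0.685 and 0.499).

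Genes of cell death rose in part. Among 13 death receptors and ligands, 3 rose and 0 fell (median 0.22), against 3.44% higher and 3.96% lower over all genes tested, and 1 to 3 rose with 1 of the 6 arrays left out. Eda2r, a receptor that p53 induces, had 6.67, 6.89 and 7.47 in double KO and 5.45, 5.58 and 5.50 in Cxcr6 KO. The TRAIL receptor Tnfrsf10b had 6.74, 6.37 and 7.26 in double KO and 5.21, 5.21 and 5.09 in Cxcr6 KO. Both rose with no overlap, Eda2r 2.83-fold (adjusted p = 0.00892) and Tnfrsf10b by 1.62 ± 0.25 (adjusted p = 0.0141), and Fas rose by 0.68 ± 0.13 (adjusted p = 0.024). Fas read 10.78 and 10.89 in wildtype, and its Cxcr6 KO arrays lay below those of every other group. Its call was lost when the mean over the rows of a gene was used. Of 26 caspases, Bcl-2 family members and necroptosis genes, 5 rose and 2 fell (median 0.06), and 1 to 4 rose with an array left out, fewest without Cxcr6 KO replicate 3. Besides Casp12, the apoptosome scaffold Apaf1 rose by 0.92 ± 0.15, the inflammasome protease Casp1 by 1.13 ± 0.19 and the necroptosis effector Mlkl by 1.20 ± 0.29 (adjusted p = 0.0148, 0.016 and 0.0405). The pro-apoptotic genes Bmf and Bid fell by 0.44 ± 0.08 and 0.62 ± 0.14 (adjusted p = 0.0215 and 0.0374).

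Among 26 p53 targets, 7 rose and 1 fell (median 0.34), and 1 to 7 rose with an array left out, fewest without Cxcr6 KO replicate 2. The 7 include Eda2r, Tnfrsf10b and Fas, already counted among the death receptors. Calls over all genes tested were 3.44% higher and 3.96% lower. Cdkn1a, the cell cycle inhibitor, had 11.58, 9.48 and 11.43 in double KO and 6.54, 6.01 and 7.11 in Cxcr6 KO. The wildtype arrays read 8.91 and 11.46 and Nemo KO 9.45 to 10.37, so for Cdkn1a the Cxcr6 KO arrays were the ones apart from the other 8. Mdm2, which restrains p53, rose by 0.61 ± 0.09, the antiproliferative gene Btg2 by 1.28 ± 0.23 and the kinase Plk2 by 2.20 ± 0.43 (adjusted p = 0.0132, 0.0204 and 0.0238). For Mdm2 the double KO arrays, at 10.69, 10.79 and 11.00, were above all others, which reached 10.43.

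Genes of mitosis stood higher in double KO than in Cxcr6 KO, though few passed. Of 47 tested, 47 had a positive difference (median 1.22), 42 had double KO wholly above Cxcr6 KO, against 13.3% of all genes tested, and limma called 2, with 40 at an unadjusted p under 0.05. Their mean signal was 6.44, 6.98 and 8.15 in double KO and 5.80, 5.81 and 5.70 in Cxcr6 KO, with the third double KO array highest. It was 6.36 to 6.65 in Nemo KO and 5.66 and 7.23 in wildtype. Wildtype replicate 2 thus lay above double KO replicates 1 and 2. Mki67, a marker of cycling cells, read 5.35 and 11.18 in wildtype and 8.64 to 9.44 in Nemo KO. It had 8.53, 10.10 and 12.38 in double KO and 5.71, 5.89 and 5.46 in Cxcr6 KO, and did not pass (4.65 ± 1.35, adjusted p = 0.0648). The same spread showed in the 2 genes that did: Mybl1, a Myb-family factor, had 9.40, 8.78 and 11.88 in double KO and 5.59, 5.74 and 5.85 in Cxcr6 KO, and the cytokinesis factor Ect2 had 8.39, 9.42 and 11.16 and 6.27, 6.90 and 6.60. Between 0 and 7 mitotic genes passed with an array left out, none without Cxcr6 KO replicate 2 or 3 and most without double KO replicate 1. Of 35 genes of DNA replication and entry into S phase 1 rose, near the 3.44% called higher over all genes tested, and the median was 0.12. It was the cyclin Ccnd2 (0.93 ± 0.19, adjusted p = 0.0265), called without double KO replicate 1 but in none of the other 5 omissions.

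Markers of other liver cell types rose in double KO. Of 29 endothelial markers, 21 rose and 0 fell (median 0.97, 27 without overlap), 8 of 25 macrophage and Kupffer cell markers rose (median 1.11, 20 without overlap), and 9 of 18 of stellate cells and fibroblasts rose (median 0.60, 11 without overlap). Over all genes tested, 3.44% were called higher and 13.3% had double KO wholly above Cxcr6 KO. With an array left out, 7 to 24 endothelial, 0 to 10 macrophage and 4 to 10 stellate markers rose, fewest without Cxcr6 KO replicate 3 for the endothelial list, without that array or double KO replicate 3 for macrophages, and without any one of double KO replicates 2 and 3 and Cxcr6 KO replicates 2 and 3 for stellate cells. The mean level of the endothelial list was 7.39 to 8.04 in double KO and 6.16 to 6.63 in Cxcr6 KO, and that of the macrophage list was 7.60 to 8.34 in double KO and 6.74 to 7.01 in Cxcr6 KO. The stellate list lay at 6.51 to 7.19 in double KO and 5.84 to 5.95 in Cxcr6 KO. In RNA from many cells at once, more cells of a type and more RNA per cell cannot be told apart. The hepatocyte markers themselves gave 0 calls of 18 (3 at an unadjusted p under 0.05), with mean levels of 17.66 to 17.76 in double KO and 17.84 to 17.92 in Cxcr6 KO.

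The endothelial members of smallest p included genes of liver sinusoids and of endothelium in general. Lyve1, a hyaluronan receptor, had 7.05, 7.23 and 6.94 in double KO and 5.44, 5.65 and 5.74 in Cxcr6 KO. Ptprb, the vascular endothelial phosphatase, had 10.42, 11.41 and 10.77 in double KO and 7.47, 8.64 and 8.26 in Cxcr6 KO. Both were higher in all double KO arrays, and they rose by 1.46 ± 0.12 and 2.74 ± 0.34 (adjusted p = 0.00377 and 0.00841). The adhesion molecule Pecam1 rose by 1.33 ± 0.16, the angiopoietin receptor Tek by 1.45 ± 0.18, the Fc receptor Fcgr2b by 2.44 ± 0.31 and the orphan receptor Gpr182 by 0.97 ± 0.13 (adjusted p = 0.00776, 0.00829, 0.00856 and 0.0101). All 6 kept their call in all 22 alternatives. Among macrophage markers, lysozyme Lyz2 had 9.36, 10.81 and 10.54 in double KO and 7.39, 7.74 and 7.51 in Cxcr6 KO, and the scavenger receptor Marco had 7.33, 8.85 and 8.52 and 6.55, 6.39 and 6.53. The defining Kupffer cell genes Clec4f (1.16 ± 0.43, adjusted p = 0.118), Vsig4 (2.35 ± 0.69, adjusted p = 0.0676) and Timd4 (0.24 ± 0.43, adjusted p = 0.745) did not pass. Of the stellate markers, the retinol-storing enzyme Lrat rose by 1.16 ± 0.16, the matrix glycoprotein Reln by 2.10 ± 0.39 and the pericyte gene Rgs5 by 2.26 ± 0.28 (adjusted p = 0.00964, 0.0208 and 0.00829).

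Few lymphocyte or granulocyte markers were bright enough to be tested. Of those tested, limma called 0 of 5 T cell, 0 of 4 NK and NKT cell and 0 of 4 neutrophil markers, and 2, 0 and 1 of these were at an unadjusted p under 0.05. Their mean levels were 5.51 to 5.86, 5.89 to 6.59 and 6.01 to 6.08 in double KO, and 5.40 to 5.50, 6.31 to 6.62 and 6.01 to 6.18 in Cxcr6 KO, where the array medians were 5.185 to 5.239 in double KO and 5.231 to 5.337 in Cxcr6 KO. Of 14 cholangiocyte and progenitor markers, 5 rose (1 to 5 with an array left out), among them Tspan8 (1.64 ± 0.17), the fibrocystin gene Pkhd1 (1.33 ± 0.20), Cd24a (1.61 ± 0.31) and the adhesion gene Epcam (0.96 ± 0.20). Their adjusted p-values were 0.00593, 0.0129, 0.0231 and 0.0257. The mean of that list was 7.05 to 7.33 in double KO and 6.47 to 6.58 in Cxcr6 KO. Among all genes tested, 3.44% were called higher.

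**Figure D2:**
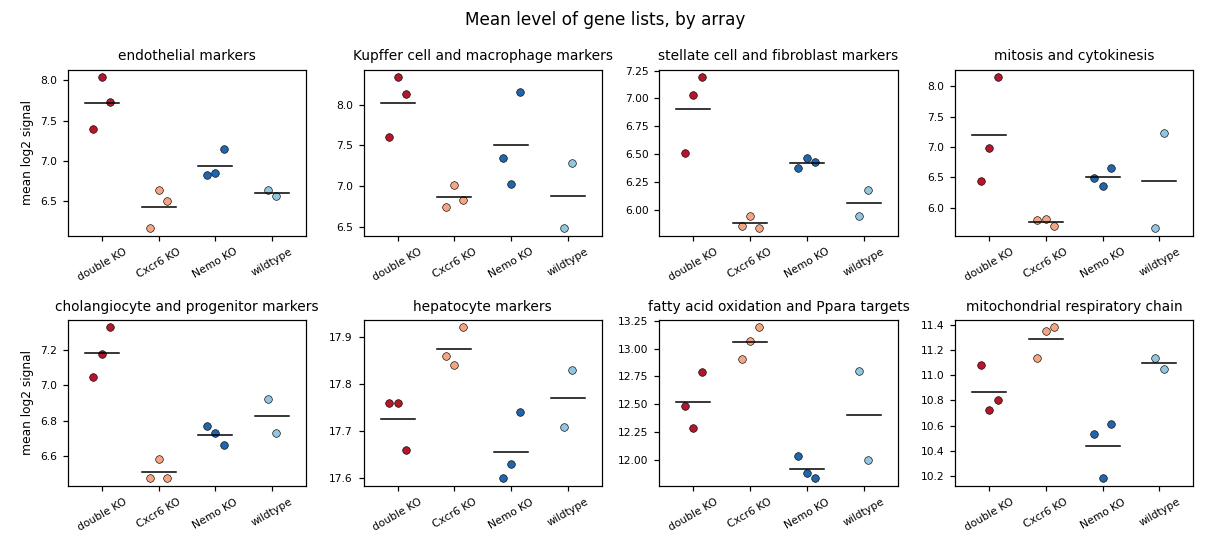
Mean log2 signal of the tested members of 8 gene lists (vertical axis) in each array, by group along the horizontal axis, with a bar at each group mean. Endothelial, macrophage, stellate and mitotic means of the 3 double KO arrays lie above those of the 3 Cxcr6 KO arrays, while the means for fatty acid oxidation, the respiratory chain and hepatocyte markers lie below.

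Several ligands and targets of the TGF-beta and BMP families rose. Endothelial and stellate markers were higher in the same arrays, and their part in these rises was not tested. Bmp2, named below, is also counted among the endothelial markers. Of 32 genes of the TGF-beta, activin and BMP families, 6 rose and 0 fell (median 0.32), and 2 to 8 with an array left out, fewest without Cxcr6 KO replicate 3. The share called higher over all genes tested was 3.44%. Bmp6, an endothelial ligand that drives hepcidin in hepatocytes, had 7.32, 7.51 and 7.36 in double KO and 6.31, 6.69 and 6.52 in Cxcr6 KO. Gdf10 had 5.78, 6.78 and 6.32 in double KO and 4.58, 4.85 and 4.86 in Cxcr6 KO. Neither overlapped, and they rose by 0.89 ± 0.12 and 1.53 ± 0.21 (adjusted p = 0.0089 and 0.0101). All Cxcr6 KO arrays of Gdf10 lay below the filter level, which it passed through its double KO mean. The fold of Gdf10 is therefore a ratio of signals and not of RNA amounts. Gdf2, the stellate cell ligand BMP9, rose by 0.82 ± 0.12, Bmp2 by 0.91 ± 0.17, Bmp5 by 1.10 ± 0.21 and the TGF-beta-induced matrix protein Tgfbi by 2.37 ± 0.55 (adjusted p = 0.0122, 0.0226, 0.0217 and 0.0375). For 5 of these 6 the double KO arrays lay above all other 8 arrays. Hepcidin itself, Hamp, had 18.60, 17.71 and 18.70 in double KO and 18.14, 18.34 and 17.85 in Cxcr6 KO, and did not differ beyond its spread (0.23 ± 0.29, adjusted p = 0.634).

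Extracellular matrix genes rose with the stellate markers, with which they share Dcn, Bgn and Lum. The share called higher among all genes tested was 3.44%. Of 23 genes of proteoglycans, crosslinking and proteases, 12 rose and 0 fell (median 0.76, 4 to 11 with an array left out, fewest without Cxcr6 KO replicate 3), and of 27 collagens and basement membrane genes 8 rose and 0 fell (median 0.36, 0 to 12, again fewest without Cxcr6 KO replicate 3). The proteoglycan Dcn had 9.86, 11.14 and 11.39 in double KO and 6.48, 7.56 and 7.25 in Cxcr6 KO. Prelp, which anchors basement membranes, had 8.20, 9.65 and 9.88 in double KO and 6.04, 6.36 and 6.21 in Cxcr6 KO. The first double KO array was the lowest of its group for both, and still above every Cxcr6 KO array. Dcn and Prelp rose by 3.70 ± 0.42 and 3.04 ± 0.41, the galectin Lgals1 by 1.81 ± 0.19, and the nidogen Nid1 by 3.71 ± 0.69 (adjusted p = 0.00629, 0.00954, 0.00553 and 0.0215). Of 30 genes of lysosomes and lipid-laden macrophages, 7 rose and 0 fell (median 0.61), with the macrophage factor Tfec (0.88 ± 0.17), the tetraspanin Cd9 (1.83 ± 0.36) and the protease Lgmn (1.73 ± 0.35) at adjusted p = 0.0237, 0.0238 and 0.024. With an array left out, 5 of these passed without double KO replicate 1 and 0 in the other 5 cases. Macrophage markers were higher in the same arrays, and their part was not tested.

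The called growth factor genes were mostly ligands. Calls among all genes tested were 3.44% higher and 3.96% lower. Of 32 genes of EGF- and HGF-type ligands, receptors and feedback, 5 rose and 2 fell (median 0.19), and 0 to 5 rose with an array left out, none without Cxcr6 KO replicate 3. Hgf, the hepatocyte growth factor made by stellate and endothelial cells, had 7.53, 8.43 and 9.23 in double KO and 5.81, 6.21 and 6.04 in Cxcr6 KO. The ErbB ligand Nrg1 had 8.07, 7.83 and 10.20 in double KO and 5.67, 5.64 and 5.47 in Cxcr6 KO. The EGF receptor ligand Btc had 8.44, 8.21 and 9.03 in double KO and 7.14, 7.28 and 7.40 in Cxcr6 KO. None of the 3 overlapped, and they rose by 2.38 ± 0.34, 3.10 ± 0.56 and 1.29 ± 0.26 (adjusted p = 0.0118, 0.0202 and 0.0238), as did Pdgfc by 1.93 ± 0.37 (adjusted p = 0.0219). The ligand Fgf1 fell by 1.00 ± 0.22 and the signalling inhibitor Spry4, at 5.89 to 6.19 in double KO and 7.59, 8.20 and 8.98 in Cxcr6 KO, by 2.23 ± 0.33 (adjusted p = 0.0328 and 0.0122). The fifth to rise was the stellate cell receptor gene Pdgfrb (0.78 ± 0.20, adjusted p = 0.0454), named after its values were seen. Of the main receptors of hepatocytes in this list, Egfr and Met did not pass: Egfr differed by 0.55 ± 0.27 and Met by -0.44 ± 0.19 (adjusted p = 0.21 and 0.161), without overlap in either.

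Genes of fatty acid oxidation were lower in double KO. Limma called 3.96% of all genes tested lower and 3.44% higher. Of 40 genes of this pathway and Ppara targets, 11 fell and 1 rose (median -0.48, 25 lower without overlap, against 24.4% of all genes tested), and 1 to 6 fell with an array left out, fewest without Cxcr6 KO replicate 3. Ppara, the nuclear receptor of the pathway, had 11.39, 12.03 and 11.66 in double KO and 12.73, 13.18 and 13.02 in Cxcr6 KO. The acyl-CoA thioesterase Acot3 had 7.68, 7.19 and 7.39 in double KO and 8.93, 10.03 and 10.16 in Cxcr6 KO. Both fell without overlap, by 1.28 ± 0.16 and 2.28 ± 0.33 (adjusted p = 0.00856 and 0.0114). The thioesterases Acot4 and Acot12 fell by 1.16 ± 0.18 and 1.00 ± 0.20, the peroxisomal thiolase Acaa1a by 0.94 ± 0.17 and the peroxisomal reductase Decr2 by 1.16 ± 0.23 (adjusted p = 0.0146, 0.0243, 0.019 and 0.0238). Cpt1a, which admits fatty acids to mitochondria, differed by -0.36 ± 0.30 with overlapping arrays (adjusted p = 0.454). For all 12 called genes of the list the Cxcr6 KO arrays were apart from the other 8, and Ppara in Nemo KO and wildtype was 12.14 to 12.16, between both groups.

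Respiratory chain genes were mostly lower too, though few passed. Among all genes tested, 39.29% had a positive difference, 24.4% were lower without overlap and 3.96% were called lower. Of 40 respiratory chain genes, 3 had a positive difference (median -0.43, 24 lower without overlap), and 3 passed: Ndufv2, Sdhb and Sdhd fell by 0.76 ± 0.17, 0.68 ± 0.16 and 0.70 ± 0.16 (adjusted p = 0.0347, 0.0417 and 0.034). Between 0 and 9 passed with an array left out, most without double KO replicate 1 and none without double KO replicate 2 or 3 or Cxcr6 KO replicate 2 or 3. The kinases that block pyruvate dehydrogenase went different ways. Pdk1 had 8.21, 7.90 and 7.57 in double KO and 9.17, 9.34 and 9.21 in Cxcr6 KO, while Pdk4 had 11.84, 10.09 and 14.36 in double KO and 8.18, 8.55 and 7.71 in Cxcr6 KO. Pdk1 fell by 1.35 ± 0.17 and Pdk2 by 1.20 ± 0.26, and Pdk4 rose by 3.95 ± 1.00 with a spread of more than 4 log2 units among the double KO arrays (adjusted p = 0.00841, 0.0328 and 0.0476). Pank1, which makes coenzyme A, fell by 1.29 ± 0.17 and the mitophagy receptor Bnip3 by 1.77 ± 0.36 (adjusted p = 0.00858 and 0.0265). In lipid handling, the fatty acid binding protein Fabp1 and the triglyceride enzyme Dgat2 fell by 1.39 ± 0.23 and 1.42 ± 0.22, and the lipid droplet protein Hsd17b13 rose by 0.68 ± 0.10 (adjusted p = 0.016, 0.014 and 0.0113).

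The circadian clock genes differed in both directions. The clock is a loop in which Arntl (BMAL1) and Clock activate genes including those of the Rev-erb repressors Nr1d1 and Nr1d2 and the output factors Dbp, Tef and Hlf, and the repressors in turn act on Arntl through ROR elements. Promoter windows of Arntl and Nr1d2 are shown because a ROR core motif, AGGTCA on either strand (TGACCT where it is on the other), lies in each, and capitals mark it. The windows run from 250 bases before to 50 bases after a RefSeq transcript start on build GRCm38.p6, chr7:113207261-113207560 on the plus strand for Arntl, which has a further window without it, and chr14:18239057-18239356 on the minus strand for Nr1d2.
Arntl: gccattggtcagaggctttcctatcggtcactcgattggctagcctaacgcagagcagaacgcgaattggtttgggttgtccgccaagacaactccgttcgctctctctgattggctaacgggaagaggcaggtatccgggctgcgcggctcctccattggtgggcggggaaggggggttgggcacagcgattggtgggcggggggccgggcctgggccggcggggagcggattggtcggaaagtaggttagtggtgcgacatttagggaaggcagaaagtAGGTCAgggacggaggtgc
Nr1d2: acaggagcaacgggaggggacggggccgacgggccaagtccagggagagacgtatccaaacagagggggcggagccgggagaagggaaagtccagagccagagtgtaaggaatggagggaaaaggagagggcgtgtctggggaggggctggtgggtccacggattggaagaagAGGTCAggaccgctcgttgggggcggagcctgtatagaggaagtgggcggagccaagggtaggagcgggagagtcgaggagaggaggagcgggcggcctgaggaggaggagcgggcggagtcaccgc
This motif was found in 4 of the 9 called clock genes with a window in the table (44.4%), against 16.1% of 10721 tested genes with a window, and it was looked for after the values were seen. The E-box CACGTG, the canonical CLOCK and BMAL1 motif, was in 0 of the 9, against 11.0% of the tested genes. A match describes letters in a window and no site of binding.

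Arntl had signals of 10.48, 7.93 and 10.56 in double KO and 7.39, 6.69 and 6.93 in Cxcr6 KO. Nr1d2 had 10.66, 11.71 and 9.47 in double KO and 12.48, 12.53 and 12.31 in Cxcr6 KO. The groups did not overlap, and the second double KO array was the nearest to Cxcr6 KO for both. Arntl rose by 2.65 ± 0.65, Clock by 0.91 ± 0.22, and Nr1d2 fell by 1.83 ± 0.46 (adjusted p = 0.0438, 0.0421 and 0.0473). These 3 were the calls among 17 core clock genes, whose median was 0.06. Nr1d1 (-1.45 ± 0.64), Npas2 (1.94 ± 0.63), Per2 (-0.78 ± 0.44) and Per3 (-1.61 ± 0.50) did not pass (adjusted p = 0.169, 0.086, 0.281 and 0.0785). Among 33 clock outputs, 6 fell and 1 rose (median -0.30), against 3.96% lower and 3.44% higher over all genes tested. Dbp had 6.60, 9.79 and 6.42 in double KO and 9.90, 11.55 and 11.10 in Cxcr6 KO, and Hlf had 7.60, 7.64 and 7.08 and 8.18, 8.57 and 8.74. The G-protein regulator Rgs16 had 10.97, 12.69 and 7.96 in double KO and 14.97, 15.41 and 15.49 in Cxcr6 KO. All double KO arrays were lower for these 3, which differed by -3.25 ± 0.83, -1.05 ± 0.20 and -4.75 ± 1.02 (adjusted p = 0.0482, 0.0217 and 0.0303). Insig2 rose by 2.28 ± 0.45 (adjusted p = 0.0238). For all 10 called genes of both lists the Cxcr6 KO arrays were apart from the other 8. The time of day at which the livers were taken is not given in the labels, and its part in these values was not tested. Without double KO replicate 2, 4 core clock genes passed higher and 2 lower, and 3 outputs higher and 7 lower. Without double KO replicate 3 or Cxcr6 KO replicate 2 or 3, limma called 0 genes of both lists.

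**Figure D3:**
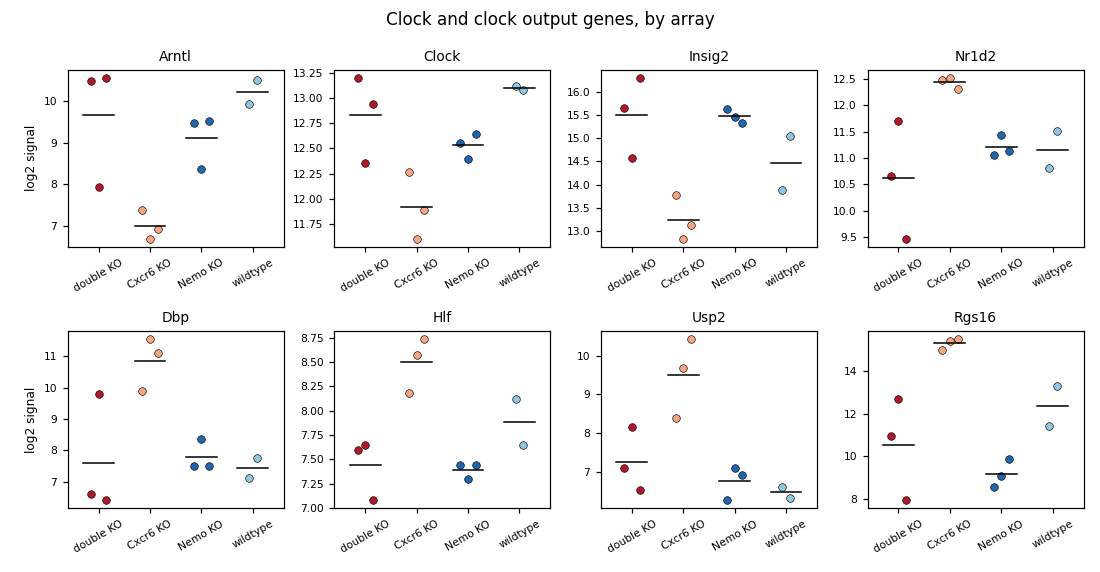
Log2 signal (vertical axis) of 8 clock and clock output genes in each array, by group along the horizontal axis, with a bar at each group mean. Arntl, Clock and Insig2 are higher and Nr1d2, Dbp, Hlf, Usp2 and Rgs16 lower in double KO than in Cxcr6 KO, and 1 double KO array lies nearer to Cxcr6 KO than the others for Arntl and Dbp.

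Male-biased liver genes were lower as a group, with 6 of 28 down and 1 up (median -0.40, 5 with a positive difference, 1 to 3 down with an array left out). Among all genes tested, 3.96% were called lower, 3.44% were called higher and 39.29% had a positive difference. Hsd3b5, a male-specific steroid dehydrogenase, had 8.83, 7.81 and 8.43 in double KO and 14.15, 14.68 and 14.42 in Cxcr6 KO. The organic anion transporter Slco1a1 had 13.57, 14.01 and 14.38 in double KO and 16.42, 16.61 and 16.53 in Cxcr6 KO. The groups were far apart for both, and these genes fell by 6.06 ± 1.42 and 2.53 ± 0.31 (adjusted p = 0.038 and 0.00839). Hsd3b5 ran from 8.49 to 11.89 in Nemo KO and was 13.64 and 7.16 in wildtype, with the wildtype arrays more than 6 log2 units apart. Female-biased genes had a median of 0.01, with 2 of 29 lower and 0 higher. In Nemo KO against wildtype the median was 0.58 for the male-biased list and -0.73 for the female-biased list. Wildtype replicates 1 and 2 differed in both lists, with means of 14.47 and 12.88 for male-biased genes and 9.20 and 11.15 for female-biased genes. The aldo-keto reductases of steroid metabolism split: Akr1c18 rose by 1.61 ± 0.23 (adjusted p = 0.0113), whereas Akr1c19 and Akr1c14 were 2.83-fold and 2.83-fold lower (adjusted p = 0.00776 and 0.0215). Near-identical members of the Hsd3b, Akr1c, Mup and Serpina1 families can share signal on the array.

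Genes of amino acid, methyl and haem metabolism were called in part, against 3.44% higher and 3.96% lower over all genes tested. Those of methyl metabolism and of haem and iron handling were called in both directions. Of 29 genes of one-carbon, methyl and choline metabolism, 3 fell and 2 rose. Of 43 genes of the urea cycle and amino acid breakdown, 5 fell and 0 rose (median -0.22), among them the aspartate carrier Slc25a13 (-0.70 ± 0.14), the tryptophan enzymes Ido2 (-0.92 ± 0.19) and Haao (-1.13 ± 0.29), and Bckdha of branched-chain amino acid breakdown (-0.84 ± 0.18), at adjusted p = 0.0256, 0.0246, 0.0479 and 0.0284. In one-carbon and choline metabolism, Mthfd1 and Shmt1 fell by 0.53 ± 0.08 and 1.10 ± 0.25, and choline kinase Chka, with 12.46, 9.81 and 14.33 in double KO and no Cxcr6 KO array above its lowest, rose by 4.33 ± 1.08 (adjusted p = 0.0148, 0.036 and 0.0458). Chka read 11.18 and 14.33 in wildtype and 11.38 to 12.42 in Nemo KO, so the Cxcr6 KO arrays lay below those of every other group. Of 33 genes of haem and iron handling, 4 fell and 3 rose (median 0.02). Alas2 and Fech, which begin and end haem synthesis (Alas2 in red cell precursors), fell by 1.60 ± 0.27 and 0.59 ± 0.11, and the iron regulatory proteins Aco1 and Ireb2 by 0.56 ± 0.11 and 0.71 ± 0.15 (adjusted p = 0.0163, 0.0196, 0.0231 and 0.0287). The 3 that rose were Bmp6, ceruloplasmin (Cp) and, named after its values were seen, Tmprss6, a protease that restrains hepcidin (0.67 ± 0.15, adjusted p = 0.036). With an array left out, 0 to 4 of this list fell, none without Cxcr6 KO replicate 2 or 3, and 1 to 3 rose. Of 6 erythroid markers tested, Alas2 was the only one called, and the list's mean was 7.49 to 7.76 in double KO and 7.54 to 7.75 in Cxcr6 KO. Conjugation enzymes lost 5 of 42, including Gsto1 (-1.20 ± 0.24) and Sult1c2 (-1.14 ± 0.25), at adjusted p = 0.0255 and 0.0326. With an array left out, 0 to 3 of the amino acid genes and 0 to 2 of the conjugation enzymes passed.

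Complement, coagulation and acute-phase genes rose in part. Among all genes tested, 3.44% were called higher and 13.3% were higher without overlap. Of 42 complement and coagulation genes, 9 rose and 0 fell (median 0.37, 26 without overlap), and 1 to 9 rose with an array left out, fewest without Cxcr6 KO replicate 3. C9, which forms the membrane attack pore, had 16.45, 16.63 and 16.97 in double KO and 15.73, 15.69 and 15.80 in Cxcr6 KO, and F8, a clotting factor made by endothelium, had 10.09, 10.94 and 10.43 and 7.96, 8.83 and 8.49. They rose without overlap by 0.94 ± 0.14 and 2.06 ± 0.27, and the complement inhibitor Cd55 by 2.15 ± 0.36 (adjusted p = 0.0122, 0.0089 and 0.016). F8 is an endothelial product, the 9 also include the macrophage marker C1qb, and the endothelial and macrophage marker lists were higher in the same arrays; their part in these rises was not tested. Of 33 acute-phase genes 4 rose and 1 fell (median 0.37, 0 to 4 up with an array left out), led by Itih3 (1.00 ± 0.15) and ceruloplasmin, Cp (0.53 ± 0.09), at adjusted p = 0.0123 and 0.016. The tight junction gene Cldn1 had 13.83, 13.34 and 14.11 in double KO and 11.92, 11.86 and 11.46 in Cxcr6 KO, and rose by 2.01 ± 0.33 (adjusted p = 0.0151). The lactate carrier Slc16a1 and the potassium channel subunit Abcc9 rose by 1.89 ± 0.37 and 1.79 ± 0.24 (adjusted p = 0.0238 and 0.00964).

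Of 23 liver tumour and oncofetal markers, 9 rose and 0 fell (median 0.96), against 3.44% higher over all genes tested. With an array left out, 4 to 8 rose. Igf2bp3, a fetal RNA-binding protein, had 6.31, 6.03 and 6.20 in double KO and 5.33, 5.19 and 5.11 in Cxcr6 KO, and the tetraspanin Tspan8 had 6.20, 6.45 and 6.96 in double KO, with every Cxcr6 KO array lower. Both rose and kept their call in all 22 alternatives. Igf2bp3 rose by 0.97 ± 0.11 (adjusted p = 0.00593). The fetal liver gene Afp, at 6.43, 5.90 and 5.80 in double KO and 5.56, 5.55 and 5.64 in Cxcr6 KO, did not pass (0.46 ± 0.16, adjusted p = 0.0951). Among chemokines and receptors, 3 of 29 rose (0 to 2 with an array left out), against 3.44% over all genes tested, including the Cxcr6 ligand Cxcl16, with 6.34, 6.63 and 6.64 in double KO and 5.76, 5.85 and 5.66 in Cxcr6 KO (0.78 ± 0.17, adjusted p = 0.0301). Interferon response genes rose in 3 of 40 cases (0 to 3 with an array left out), too few to set this list apart from that share, with Stat2 at 0.78 ± 0.12 and Ifi27l2b at 5.64 ± 0.98 (adjusted p = 0.0132 and 0.0176). Genes of cholesterol synthesis, pericentral hepatocytes and heat shock proteins gave 0 calls by limma of 24, 20 and 19 tested, with 5, 4 and 2 at an unadjusted p under 0.05.

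**Figure D4:**
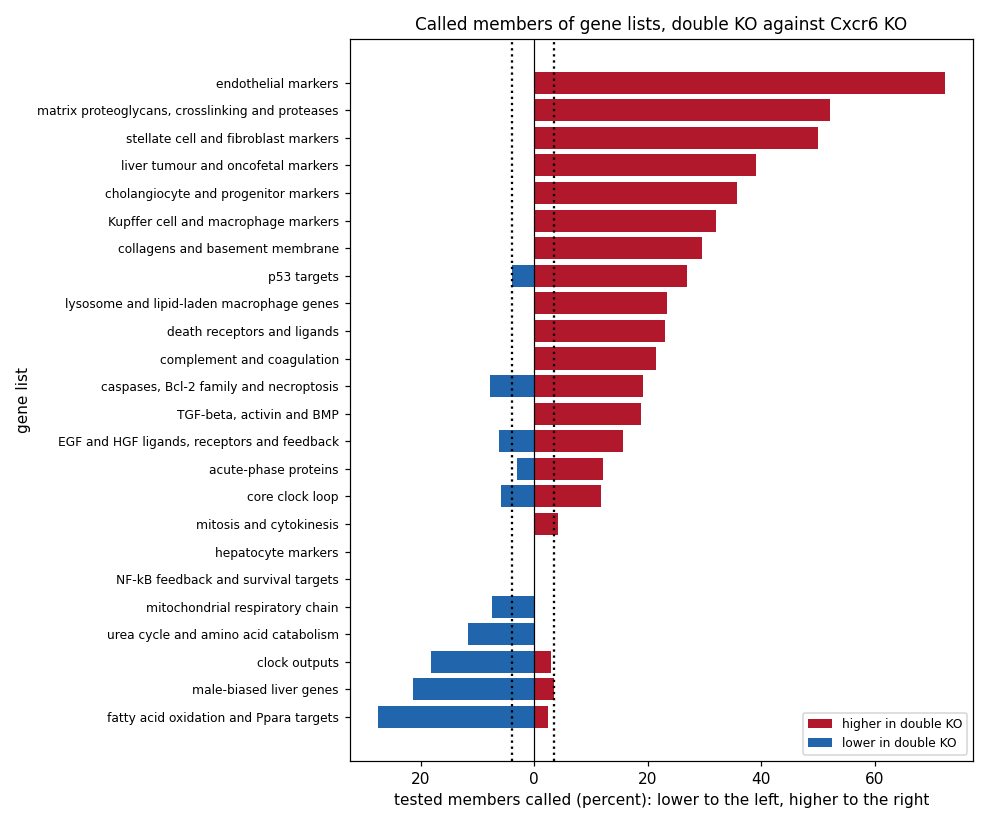
Share of tested members called higher (to the right, percent) and lower (to the left, percent) in double KO against Cxcr6 KO for 24 gene lists, at adjusted p under 0.05. Dotted lines mark the shares over all genes tested, 3.44% higher and 3.96% lower, and the endothelial, matrix and stellate lists reach furthest to the right while fatty acid oxidation reaches furthest to the left.

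The called genes differed in which arrays stood apart. For 245 of the 1358 (18.0%) all 6 Nemo-deleted arrays, double KO and Nemo KO, were above the other 5, and for 339 all 6 were below. Over all genes tested these shares were 2.03% and 7.12%. The double KO arrays alone were above the other 8 for 228 called genes (16.8%) and below for 56 (4.1%), against 2.29% and 2.05% of all genes tested. The Cxcr6 KO arrays alone were above the other 8 for 383 (28.2%), which are genes lower in double KO, and below for 239 (17.6%). Among all genes tested, 5.89% had the Cxcr6 KO arrays above and 3.38% below. A gene can show more than 1 of these orders, as 280 called genes did (20.6%), and 169 (12.4%) showed none. Among all genes tested, 2.21% showed more than 1 and 79.58% showed none. Since the call uses the double KO and Cxcr6 KO arrays, the shares among called genes describe those genes and test nothing. The lists differed in these orders. All 7 called growth factor genes had the 6 Nemo-deleted arrays apart. Of 21 called endothelial markers, 17 had double KO apart and 14 had the Nemo-deleted arrays apart. Of 8 called macrophage markers, 5 had the Nemo-deleted arrays apart and 0 had double KO apart.

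The same contrast in the Nemo line, Nemo KO against wildtype, called 29 genes (0.158% of those tested), 9 higher (0.0491%) and 20 lower (0.109%). It shares no array with double KO against Cxcr6 KO, though both use the spread of the common fit. Of the 1358 genes called in double KO against Cxcr6 KO, 1166 (85.9%) had the same sign in Nemo KO against wildtype, against 62.6% of all genes tested. The size was smaller there: genes that rose in double KO had a median of 0.96 against Cxcr6 KO and 0.29 in Nemo KO against wildtype, and those that fell had -0.75 and -0.45. Choosing genes by their size in the first comparison favours a larger median there. The correlation between the log2 fold changes of the 2 comparisons was 0.792 over the called genes and 0.509 over all tested, across genes that are not independent replicates. A total of 18 genes were called in both, all with the same sign, including Ly6d, Gldn, the immune checkpoint gene Vtcn1, C9, Fech and Mthfd1. Vtcn1 had 8.31, 8.58 and 8.70 in double KO, 7.43, 6.95 and 6.96 in Cxcr6 KO, 8.17, 8.19 and 7.90 in Nemo KO, and 6.54 and 6.83 in wildtype.

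**Figure D5:**
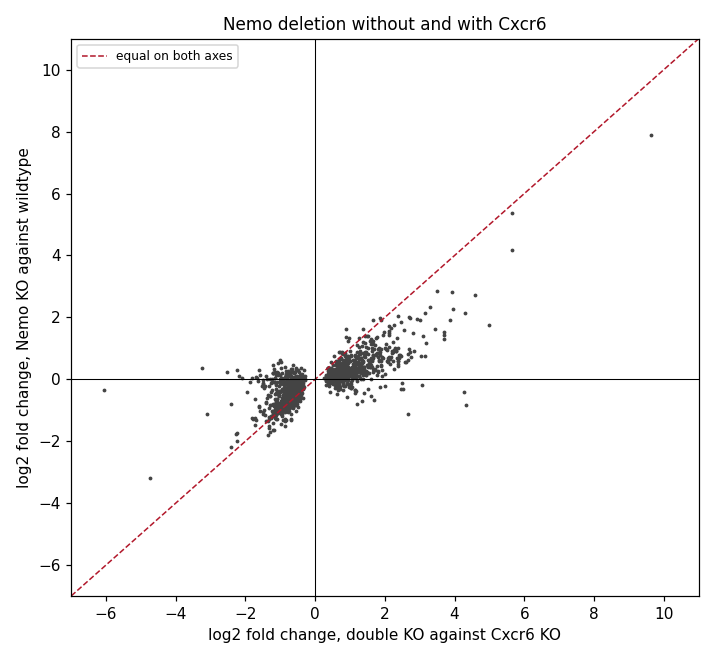
Log2 fold change of Nemo KO against wildtype (vertical axis) against that of double KO against Cxcr6 KO (horizontal axis) for the 1358 genes called in double KO against Cxcr6 KO, with the diagonal and both zero lines. Of these points 85.9% have the same sign on both axes, and most lie nearer to zero on the vertical axis.

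Whether the effect of Nemo deletion differed with Cxcr6 status was tested by the interaction, the log2 fold change of double KO against Cxcr6 KO minus that of Nemo KO against wildtype. With all 11 arrays limma called 0 of 18337 genes (0%), with a smallest adjusted p of 0.251 and 2155 genes at an unadjusted p under 0.05. The wildtype group had 2 arrays, which correlated at 0.9843, lower than in the other groups. Without wildtype replicate 2 the interaction called 88 genes and without wildtype replicate 1 it called 232, with the lone wildtype array then assumed to vary like the other groups. It called 7 genes without double KO replicate 1, and 1 without double KO replicate 3 or Nemo KO replicate 3. Sets of genes named above as apart in a single group are therefore described and not shown to depend on Cxcr6 status, which cannot be told apart from mouse line in these samples.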

How the data were processed

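Expression in hepatocytes was measured on 11 whole-transcript arrays, 2 or 3 per group, of which 6 enter the double KO against Cxcr6 KO contrast. Each deposited value is the log2 signal of a transcript cluster, which the authors made with Affymetrix Expression Console, RMA and Transcriptome Analysis Console, per the submitters' processing notes; versions and the genome build of the array design are not given in the sources used here. RMA corrects background, normalizes by quantiles and summarises probes, so small differences in dim genes are compressed. Of 65956 rows, 30604 had 1 gene symbol, 2146 several and 33206 none in the platform annotation, and only the first kind was used. Of these, 22815 matched RefSeq by gene identifier and 827 symbols were updated. The brightest row stood for each of 355 genes with more than 1 row, leaving 30142 genes.

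Genes whose highest group mean reached the median of row means (5.27) were tested, 18337 in all, by linear models with moderated variances (limma 3.58.1, R 4.3.3) and Benjamini-Hochberg adjustment over all tested genes at 0.05. All 4 groups shared 1 spread estimate with 7 residual and 2.13 prior degrees of freedom. The fit was checked on simulated data. Named are the 25 highest and 25 lowest log2 fold changes and the 20 largest moderated t in each direction, of which some are described, up to 6 called members of each of 60 gene lists, genes whose role defines a list, 2 further called members marked where they are named, and Ikbkg, Cxcr6, Cxcl16, Afp, Mki67 and Cdkn1a. Members and lists were chosen with earlier results of these data known, and lists are described by counts and medians without a test. Same-numbered arrays of double KO and Cxcr6 KO did not deviate together (r = 0.059, -0.036 and 0.007), so replicate numbers do not pair them.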

Additional observations from a re-analysis of the deposited data

How the results depend on the processing

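The 127 called genes named in the text kept their direction in all 22 alternatives, and 42 kept their call in every one. Their double KO and Cxcr6 KO arrays did not overlap, so leaving out an array could not reverse a direction. The count of called genes was 116 to 2342 with 1 of the 11 arrays left out, with 83 to 972 higher and 33 to 1454 lower, where omissions of Nemo KO arrays and wildtype replicate 1 were added after seeing the data. Without Nemo KO replicate 1, 2 or 3 it was 762, 2204 or 1456, and without wildtype replicate 1 or 2 it was 2334 or 2342. The interaction called 0 to 232 genes over the same omissions. Other settings moved counts by over 1.5 times: lower genes numbered 473 with no filter on dim genes, 462 with arrays centred on their medians and 1099 after quantile normalization. Array weights gave 4692 calls, 1568 higher and 3124 lower, and a fit of the 6 arrays alone gave 2784, with 1908 lower. The cause was not tested.

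With the replicate number as a block, 1507 genes passed, 644 higher and 863 lower, and the interaction called 0. In the 6 arrays alone the block gave 1357, with 512 higher and 845 lower. The numbers do not pair these samples.

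The precision is limited by 2 or 3 arrays per group. Genes near or below the array median carry little signal over background. Among those named, this holds for Gdf10, Tnfrsf10b, Tspan8, Epcam, Igf2bp3 and Tfec in Cxcr6 KO and for Trhde in double KO. Double KO replicate 3 was highest for mitotic genes and replicate 2 stood nearer to Cxcr6 KO for clock genes, and the fewest genes passed without Cxcr6 KO replicate 3.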
